A study of Mus musculus with 4 samples.

Results

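Receptor genes for hormones and peptides of energy balance, 10 in number, were followed across cells that carry a leptin receptor reporter. These are Ghsr, Ghr, Calcr, Crhr1, Npy2r, Npy1r, Insr, Igf1r, Prlr and Acvr1c, 10 of the 35963 genes in the count tables, found by symbol. The list was selected on earlier results of these data. The exact values used are not recorded and were taken to be the difference between AgRP-like neurons and other neurons, the high Igf1r of endothelial cells and Npy1r of pericytes, and Acvr1c and Ghr leading the fasted AgRP cluster. Values from those contrasts are therefore given as descriptions, with no test.

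The cells came from the hypothalamus of C57BL/6 mice carrying Lepr-cre and a Rosa-LSL-tdTomato allele, sorted 1 per well into 384-well plates. Cre is driven from the Lepr locus, so a cell stays marked once Lepr has been active in its history. Both alleles are present in all plates. The 3 fed plates and the 1 plate of mice without food for 24 h are the replicates, and no label ties a plate to its own animals. The p-values therefore cover plate-to-plate spread alone, which may be technical. The sources used here do not give the number, age or sex of the animals. With 1 fasted plate, feeding state cannot be told apart from anything else that differs between plates. Values by plate are given below in the order fed 1, 2 and 3, then fasted, and CPM is counts scaled to a common total of the summed cells.

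Each receptor belongs to a known signalling family. Ghsr binds ghrelin, the stomach peptide that drives feeding through AgRP neurons. Ghr and Prlr are class I cytokine receptors for growth hormone and prolactin and signal through JAK2 and STAT5. Insr and Igf1r are the receptor tyrosine kinases for insulin and IGF1, with IRS proteins downstream. Calcr binds calcitonin and, with a RAMP partner, amylin. Crhr1 binds corticotropin-releasing hormone. Npy1r and Npy2r are Gi-coupled receptors for NPY, and Npy2r is known as a presynaptic autoreceptor on NPY neurons. Acvr1c (ALK7) is a type I receptor of the activin and nodal family and signals through SMAD2 and SMAD3.

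Promoter sequences are shown for Ghsr, Ghr and Acvr1c, which were highest in AgRP-like neurons and lay above every fed plate on the fasted plate. RefSeq (GRCm38.p6) gave 14 promoters for 9 of the 10 genes, windows of 300 bases around a start site. Capitals mark the GC box, GGGCGG on either strand, a motif of many GC-rich promoters. The sequences lie at chr3:27371101-27371400 (plus strand), chr15:3583303-3583602 (minus strand) and chr2:58357709-58358008 (minus strand).
Ghsr: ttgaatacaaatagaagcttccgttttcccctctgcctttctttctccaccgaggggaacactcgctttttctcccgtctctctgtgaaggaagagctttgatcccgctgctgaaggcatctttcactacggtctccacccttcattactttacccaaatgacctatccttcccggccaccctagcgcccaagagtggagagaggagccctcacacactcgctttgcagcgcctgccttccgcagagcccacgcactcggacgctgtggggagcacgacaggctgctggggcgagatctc
Ghr: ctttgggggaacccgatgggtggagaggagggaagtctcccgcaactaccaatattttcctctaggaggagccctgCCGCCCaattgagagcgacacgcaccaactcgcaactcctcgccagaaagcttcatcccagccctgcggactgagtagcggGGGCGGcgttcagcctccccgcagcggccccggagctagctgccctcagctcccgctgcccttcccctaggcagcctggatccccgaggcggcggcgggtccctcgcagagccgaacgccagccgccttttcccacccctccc
Acvr1c: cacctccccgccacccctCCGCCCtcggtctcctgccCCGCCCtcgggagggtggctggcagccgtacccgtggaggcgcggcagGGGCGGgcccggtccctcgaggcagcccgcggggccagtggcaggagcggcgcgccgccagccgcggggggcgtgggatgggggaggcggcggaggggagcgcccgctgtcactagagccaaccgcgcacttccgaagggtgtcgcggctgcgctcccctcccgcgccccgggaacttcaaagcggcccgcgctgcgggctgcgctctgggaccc

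The Ghr window held the GC box at -174 and -93 bases from the start site, and the Acvr1c window held it at -232, -213 and -165. The Ghsr window held none, and 35.7% of 32851 promoters of this length hold the motif. GC content was 56.3% for Ghsr, 67% for Ghr and 79% for Acvr1c, against a median of 52.7% over all promoters. Ghr and Acvr1c each have a second window, not shown, with 52.3 and 50.3% GC and no GC box. The palindromic STAT motif TTCNNNGAA, present in 8.30% of promoters, was found in a single window, the second of Prlr, which also held TGACG and the FOXO motif TGTTTAC (3.65% of promoters). The search also covered both strands for the cyclic AMP element TGACGTCA (1.79% of promoters) and the shorter form TGACG that lies within it (20.8%). The E-box CACGTG (7.15%), the TATA box TATAAA (13.6%) and the homeobox motif TAATTA (5.29%) were searched likewise. A match in a window is a description of its letters.

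Of 1536 wells, 1279 were kept, with 270 to 356 per plate and median depths of 7750 to 13507 UMIs per well. The cells fell into 24 clusters. AgRP-like neurons numbered 192, of which 82, 59 and 28 were fed and 23 fasted. Different clusters held them on different plates: cluster 5 held 77 of the 82 cells of fed plate 1, cluster 12 held all 59 of fed plate 2 and 25 of 28 of fed plate 3, and 22 of the 23 fasted cells were in cluster 22. The 198 other neurons numbered 42, 55, 76 and 25 in the same order. Wells with Xist but without Y-linked transcripts (Xist-only) were 6.74, 51.6 and 42.0% fed and 84.4% fasted. Wells with the reverse (Y-only) were 75.6, 25.2 and 29.6% fed and 0% fasted.

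**Figure D1:**
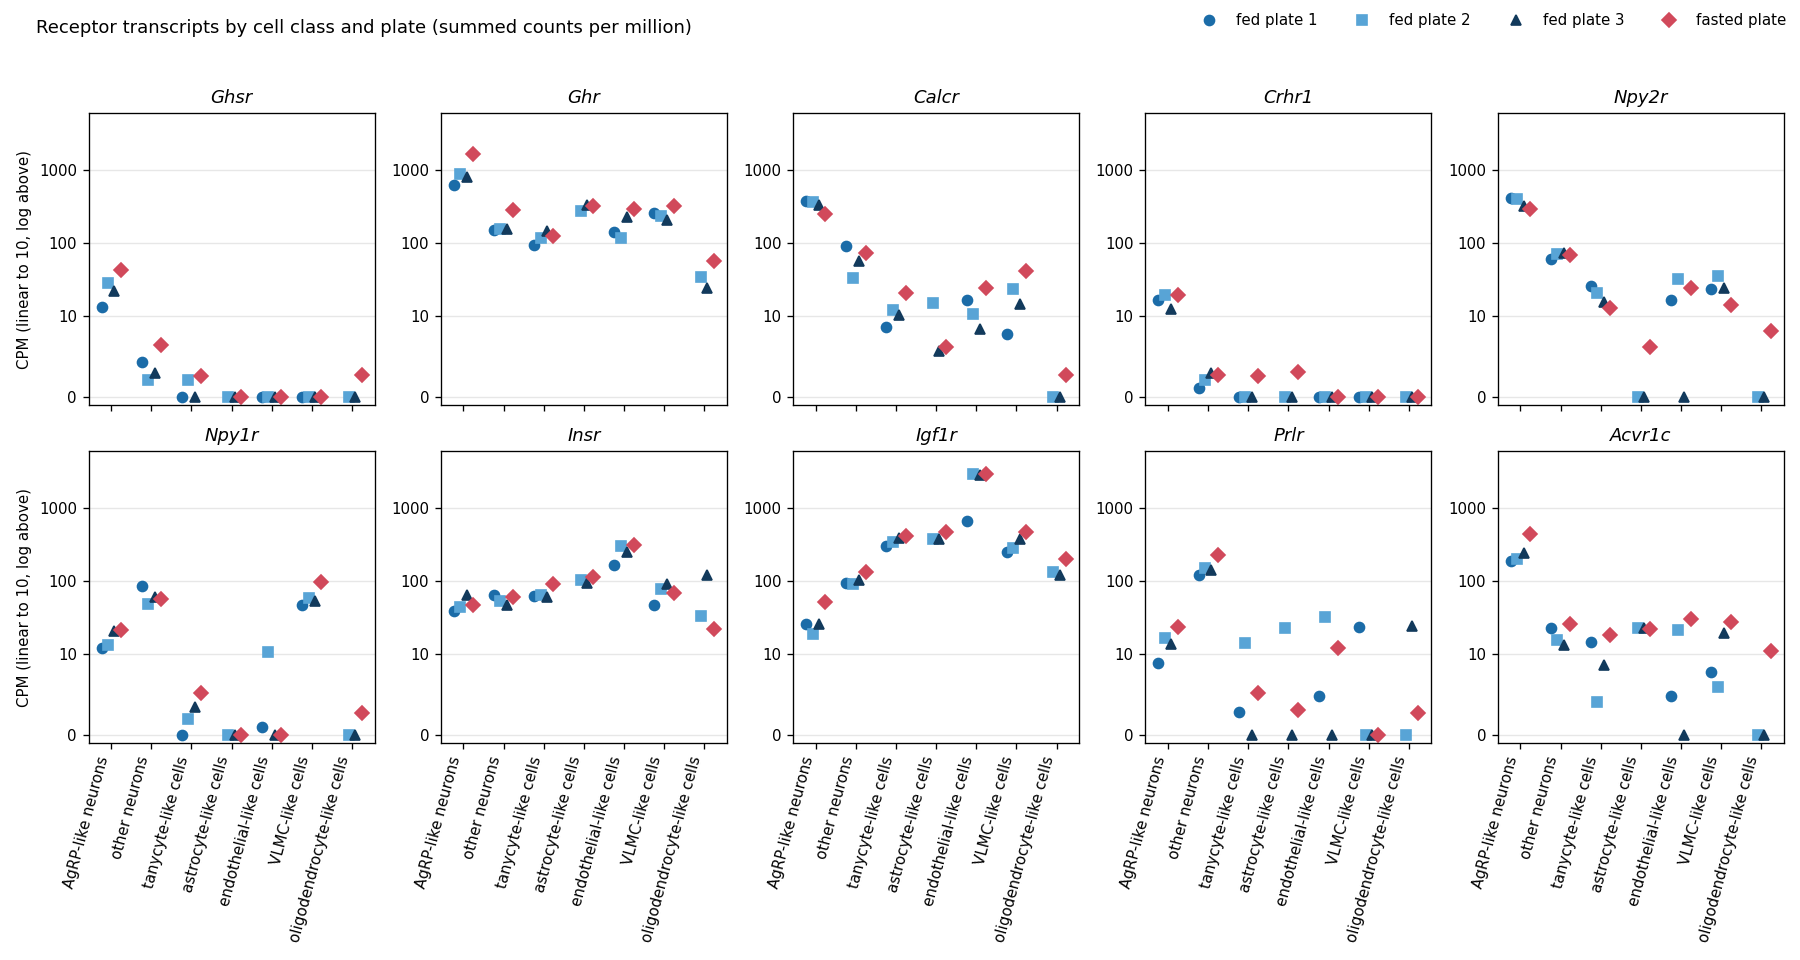
Level of each receptor by cell class, 1 panel per gene. The y axis is CPM of plain totals, linear to 10 and logarithmic above, and each point is 1 plate with at least 5 cells of the class. Ghr in AgRP-like neurons lies between 616 and 879 CPM on the fed plates and at 1651 on the fasted plate, and Igf1r in endothelial-like cells lies at 659 on fed plate 1 and between 2837 and 2950 on the others.

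A group of 6 receptors marked AgRP-like neurons, the arcuate neurons that drive feeding. Of all counts in kept wells, these 192 cells held 89.2% for Acvr1c, 85.5% for Ghsr, 84.6% for Crhr1, 82.9% for Calcr, 82.4% for Npy2r and 74.0% for Ghr. Insr, Igf1r, Npy1r and Prlr had 22.1, 3.77, 18.8 and 8.98% there. These shares follow from the choice of members and carry no test. They are also not scaled to depth. Of all UMIs in kept wells, AgRP-like neurons held 2150471, 1682308, 964547 and 1620200 by plate, of totals of 5.53e+06, 4.40e+06, 4.705e+06 and 5.09e+06. In the log2 difference between AgRP-like and other neurons over 4 plates, Acvr1c stood at 3.86 (SE 0.16), Crhr1 at 2.83 (SE 0.39), Ghsr at 2.82 (SE 0.33) and Calcr at 2.48 (SE 0.24). Ghr was at 2.42 (SE 0.10) and Npy2r at 2.42 (SE 0.12). All 6 were higher on 4 of 4 plates.

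The remaining 4 lay on the other side or at 0. Insr differed by -0.17 (SE 0.18) and was higher on 1 of 4 plates. Igf1r was at -1.78 (SE 0.17), Npy1r at -1.87 (SE 0.22) and Prlr at -3.33 (SE 0.15), each lower on 4 of 4 plates. The median over the 10 receptors was 2.42 and over all 12813 genes compared 0.00. The plot of these differences shows a gap between Ghr or Npy2r and Insr with no receptor in it. The list was taken to be chosen on this difference, so the median and the gap are descriptions and carry no test.

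**Figure D2:**
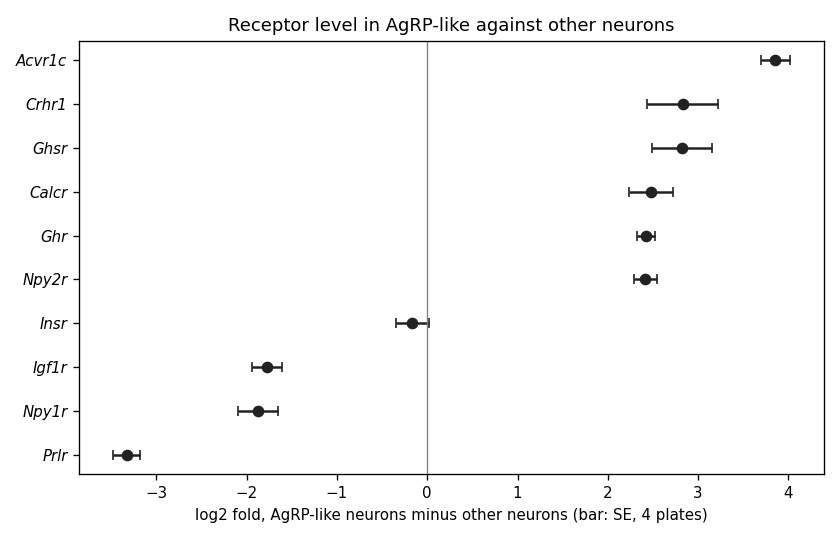
Difference in level between AgRP-like neurons and other neurons for the 10 receptors. The x axis is the log2 fold with its SE from 4 plates, and 6 receptors lie between 2.42 and 3.86, Insr at -0.17 and 3 receptors between -3.33 and -1.78.

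Ghr, the growth hormone receptor, spans chr15:3317760-3583492 on the minus strand (GRCm38, GENCODE vM21). Its plain CPM in AgRP-like neurons was 616, 879 and 789 fed and 1651 fasted. The corresponding values in other neurons were 148, 153, 154 and 282. No AgRP-like plate overlapped any plate of other neurons. Outside neurons Ghr was present in astrocyte-like cells at 277 and 336 CPM on fed plates 2 and 3 and in VLMC-like cells (fibroblasts of meninges and vessel walls) at 232 ± 26.0 (SD, n = 3). In oligodendrocyte-like cells, a class taken as the background, it was 28.9 ± 6.47 (SD, n = 2 fed plates).

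Npy2r (chr3:82538383-82548084, minus strand) stood at 415, 403 and 318 CPM fed and 294 fasted in AgRP-like neurons, against 60.4, 69.7, 72.6 and 67.9 in other neurons. Calcr (chr6:3685680-3764714, minus strand) stood at 374, 361 and 333 fed and 249 fasted, against 89.6, 33.1, 56.2 and 71.5. Acvr1c (chr2:58267453-58357895, minus strand) stood at 191, 200 and 243 fed and 443 fasted, against 22.7, 15.5, 13.5 and 25.4. For these 3 receptors the classes did not overlap on any plate, and the fasted plate was lowest in AgRP-like neurons for Npy2r and Calcr and highest for Acvr1c.

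Ghsr and Crhr1 were sparse. Ghsr (chr3:27371351-27378010, plus strand) had 165 counts in AgRP-like neurons, at 13.02, 27.9 and 21.8 CPM fed and 42.6 fasted, and 20 counts in other neurons. It had 0 counts in endothelial-like cells, astrocyte-like cells and VLMC-like cells. Crhr1 (chr11:104132855-104175523, plus strand) had 110 counts in AgRP-like neurons, at 16.3, 19.0, 12.4 and 19.1 CPM, and 13 in other neurons. Its ligand gene Crh had 86 counts in 6 of the kept wells.

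The share of cells with a transcript follows depth, and AgRP-like neurons had a median of 30445.5 UMIs against 6909 in tanycyte-like cells. After every cell was thinned to 1000 UMIs, Ghr was found in 54.2% of AgRP-like neurons (104 of 192 cells, 95% exact interval 46.8 to 61.4) and in 96.9% before thinning. In oligodendrocyte-like cells, with a median of 9016 UMIs, 2 of 51 cells (3.92%) had Ghr after thinning and 35.3% before. Thinned shares in AgRP-like neurons were 33.3% for Npy2r, 30.2% for Calcr and 17.7% for Acvr1c, each against 0 of 51 oligodendrocyte-like cells. A share of 0 of 51 allows up to 5.88%, for counting error only. A second random thinning gave 47.9% for Ghr in AgRP-like neurons and 7.84% in oligodendrocyte-like cells.

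At 1000 UMIs Ghsr and Crhr1 were each seen in 1 of 192 AgRP-like neurons (3 and 2 in the second thinning), so no difference from background was detectable at this depth. At 3000 UMIs Ghsr was seen in 14 of 190 (7.37%) and Crhr1 in 4 of 190 (2.11%). Unthinned, Ghsr was found in 41.1% and Crhr1 in 37.5% of these cells, against 6.57% and 5.05% of other neurons, whose median depth was 26249 UMIs.

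Single AgRP-like neurons held several of the receptors at once. Among the 182 cells with at least 10000 UMIs, thinned to that number, a median of 5 of the 10 receptors was seen (range 2 to 8). The share with 5 or more was 45.5, 61.8 and 55.6% fed and 73.9% fasted. In other neurons the median was 3, and 20 of 182 cells had 5 or more. The list was taken to be chosen on the difference between these classes, so this comparison is a description. The same holds for fasted against fed: Acvr1c, chosen by that contrast, was seen in 74.0, 78.2 and 85.2% of fed and 100% of fasted AgRP-like cells. Ghr and Npy2r were found together in 171 of the 182 cells (94.0%), where the product of their separate shares is 94.0%. Calcr and Npy2r were together in 155 (85.2%, product 85.1%), and Ghr and Acvr1c in 144 (79.1%, product 78.9%).

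Prlr, the prolactin receptor, (chr15:10177238-10349180, plus strand) lay mainly in other neurons, which held 79.6% of its counts. Its plain CPM there was 122, 152 and 140 fed and 225 fasted, against 8.84, 16.6, 13.5 and 23.5 in AgRP-like neurons. Pars tuberalis-like cells, the pituitary stalk cells that make thyrotropin subunits, had 85.7 CPM (fed 1) and 92.0 CPM (fasted), the plates with at least 5 such cells. In the thinned cells Prlr was seen in 25 of 198 other neurons (12.6%) and 0 of 235 tanycyte-like cells (which allows up to 1.28%). Prlr overlaps Gm21973 on the same strand, which had 12 counts in all kept wells against 1091 for Prlr.

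Other neurons were split into 14 sub-clusters, N0 to N13, and Prlr differed widely among them. In N11, 6 cells led by Tac2 and Kiss1, genes of the arcuate neurons that pulse gonadotropin release, Prlr was at 1096 CPM (95% Poisson interval 936 to 1276, counting error only) and was found in 6 of 6 cells. By plate it was 960, 947, 1185 and 1357 in N11, from 1 to 3 cells each. In N7, 7 cells led by Gng8, Opn5 and Samd3, it was 538 CPM. In N0, 18 cells led by Pomc, the melanocortin precursor, it was 384 CPM, with 155, 502 and 447 by fed plate and no fasted cell, and in N6, 15 cells led by Fbn2 with some Pomc, it was 274. In N1, 11 cells led by Ghrh, Gal and Slc18a3, it had 0 counts (upper Poisson limit 11.8 CPM).

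Npy1r (chr8:66697192-66706792, plus strand) was highest among the sub-clusters in the Pomc-led N0 at 207 CPM (172 to 247), in N6 at 183 (148 to 224), in N11 at 131 (80.2 to 203) and in the Ghrh-led N1 at 115 (80.5 to 159). In AgRP-like neurons it was 12.1, 13.1 and 20.7 CPM fed and 21.0 fasted, and in other neurons 84.2, 47.9, 60.1 and 56.1. The groups did not overlap. VLMC-like cells had 46.4 to 59.0 CPM fed and 97.4 fasted, a range that overlapped that of other neurons on the fed plates.

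Ghr and Calcr were also found in single neuron groups outside the AgRP-like cells. Ghr in the Ghrh-led N1, which makes the hormone that releases growth hormone, was 367 CPM (303 to 441) and was found in 11 of 11 cells. In N4, 25 cells led by Sst, the gene for somatostatin, Ghr was 26.1, 228 and 109 CPM fed and 563 fasted, and 160 of its 226 counts came from the 5 fasted cells. Calcr in N10, 9 cells led by Nxph4 and Sim1, was 478, 0 and 185 CPM by fed plate, from 1, 1 and 7 cells. In N1 Calcr was 180, 50.1 and 294 CPM fed and 0 in the 1 fasted cell. Npy2r was at 182 CPM in N3, 26 cells led by Pirt. The receptors were not among the features that built the sub-clusters, and each holds at most 14 cells per plate.

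**Figure D3:**
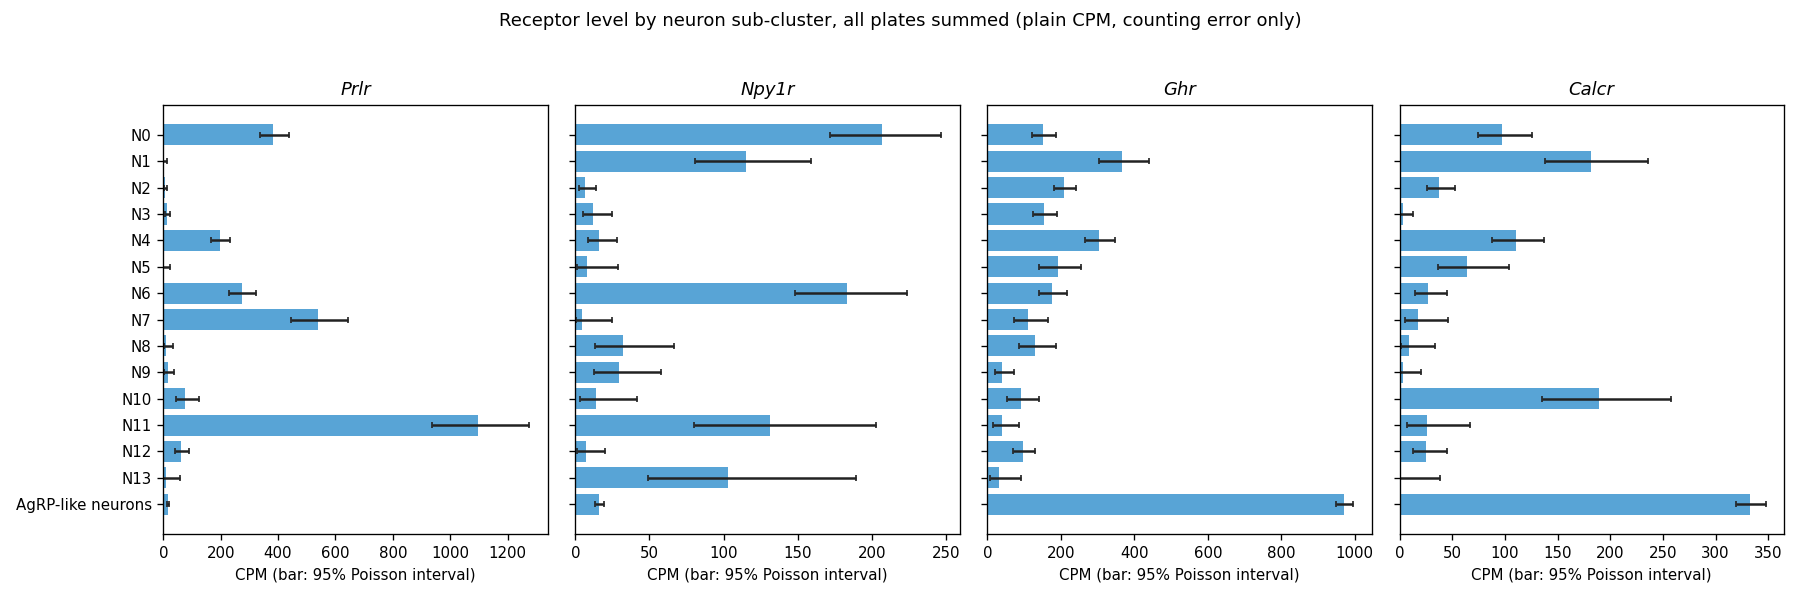
Level of Prlr, Npy1r, Ghr and Calcr in the neuron sub-clusters N0 to N13 and, for reference, in AgRP-like neurons. The x axis is plain CPM of counts summed over all plates, with the 95% Poisson interval as error bar. Prlr reaches 1096 CPM in N11, and Npy1r 207 CPM in N0.

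Igf1r (chr7:67952827-68233668, plus strand) and Insr (chr8:3122061-3279617, minus strand), the kinase receptors, had their highest CPM in endothelial-like cells. In shares of Insr counts, not scaled to depth, AgRP-like neurons held 22.1% and other neurons 22.1%. Endothelial-like cells, 127 of 1279 cells, held 21.2% of Insr counts and 34.1% of Igf1r counts. Igf1r there was 659, 2950 and 2837 CPM fed and 2940 fasted. Fed plate 1 was the low one. Its 72 endothelial-like cells were mostly cluster 15, 57 cells led by Lrg1, Lcn2 and Cfb, with Igf1r at 582 CPM (534 to 632). Within cluster 2, which held the rest of the class, fed plate 1 had 1547 CPM (1292 to 1839). Cluster 15 came from fed plate 1 alone, so the cluster and the plate cannot be told apart.

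Insr in endothelial-like cells was between 167 and 307 CPM fed and 317 fasted, and in cluster 2 of fed plate 1 it was 299.9. In the other compared classes with 3 fed plates the fed means lay between 49.3 and 71.8 CPM and their ranges overlapped. Among the named classes with 3 fed plates, Igf1r was next highest in tanycyte-like cells at 346 ± 46.4 CPM and VLMC-like cells at 302 ± 65.0 (SD, n = 3), which did not separate by range. It was 96.9 ± 6.80 in other neurons and 23.7 ± 4.02 in AgRP-like neurons. The unnamed cells lay above these at 590 ± 50.9 CPM (SD, n = 3). Of the classes with fewer fed plates, pars tuberalis-like cells had 600.2 CPM (n = 1), ependymal-like cells 414, astrocyte-like cells 378 and oligodendrocyte-like cells 128 (n = 2 each). After thinning, 87 of 127 endothelial-like cells (68.5%) and 7 of 51 oligodendrocyte-like cells (13.7%) had Igf1r.

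The genes whose level across 25 class-by-plate values of the fed plates was most like a receptor, among 12508 genes, were named by Pearson correlation of log2(CPM + 1), as a description. Crhr1 was nearest to Htr1a, a serotonin receptor, at r = 0.94, and Ghsr to Pcsk1n at 0.91. Igf1r was nearest to Gbe1 (0.89), Acvr1c to Glra2 (0.85), Calcr to Pgr15l (0.85), Npy2r to Morf4l2 (0.84), Insr to Tjp1, a tight junction gene, at 0.81, and Prlr to Tmem200a (0.77). Lepr was among the 3 genes nearest to Npy1r, at 0.83. The 25 values share plates and depth. Crhr1 (89 counts) was above 0 only in AgRP-like and other neurons. Ghsr (111 counts) was above 0 there, in pars tuberalis-like cells and in tanycyte-like cells of fed plate 2. The r values of Crhr1 and Ghsr therefore rest mainly on neurons against the other classes.

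Fasting was compared with feeding within 6 classes. In AgRP-like neurons, whose cells had median depths of 26017, 30397 and 33164 UMIs fed and 65352 fasted, all 10 receptors passed the filter on low counts. Ghr and Acvr1c were chosen by this contrast, so their values are given as a description. On the CPM scale after TMM scaling, Ghr was 625, 886 and 786 fed and 1697 fasted, a log2 difference of 1.15 (SE 0.22). Acvr1c was 193, 202 and 242 fed and 455 fasted, a difference of 1.11 (SE 0.20). In both, the fasted plate lay above every fed plate.

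Of the other 8 receptors, 1 was called in AgRP-like neurons, Igf1r, where 4.96% of all 13094 genes tested were called (650, with 403 higher and 247 lower). The p-values of these 8 assume that their own fasted and fed values played no part in the choice of the list. Igf1r was 26.4, 19.2 and 25.8 CPM fed and 53.3 fasted, which lay above all of them, a log2 difference of 1.16 (SE 0.30, edgeR quasi-likelihood adjusted p = 0.0172). The call was lost without fed plate 2 (adjusted p = 0.0889), with the DESeq2 test (0.328) and with Xist-only cells (0.163, log2 1.68). The counts behind it were 56, 32, 25 and 84. Igf1r was seen in 27.3, 27.3 and 11.1% of fed and 26.1% of fasted AgRP-like neurons thinned to 10000 UMIs. Thinned to 3000 UMIs, it was seen in 6.17, 8.62 and 17.9% fed and 17.4% fasted. The fasted share was highest at neither depth. In AgRP-like neurons the summed level of the 7 endothelial markers was 284, 51.1 and 111 CPM fed and 73.4 fasted, so it was not highest on the fasted plate. That of the 8 oligodendrocyte markers was 183, 221 and 152 CPM fed and 354 fasted. The 4 pars tuberalis markers stood at 28.8, 1.19 and 5.18 CPM fed and 72.2 fasted, and the 8 microglia markers at 36.3, 35.1 and 28.0 fed and 88.3 fasted. Pars tuberalis-like cells had Igf1r at 492 CPM on the fasted plate. The part of these 3 marker groups, all highest on the fasted plate, in the Igf1r difference was not tested.

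Ghsr showed a log2 difference of 1.08 (SE 0.35) and was 13.2, 28.2 and 21.7 CPM fed and 43.8 fasted. The fasted plate was highest, and the edgeR adjusted p was 0.0684, which did not pass. Without fed plate 2 it was 0.0187, without fed plate 3 0.0213 and without fed plate 1 0.151. Prlr (0.90, SE 0.42, adjusted p = 0.239), Npy1r (0.54, SE 0.42, 0.533), Crhr1 (0.26, SE 0.41, 0.792) and Insr (0.00, SE 0.29, 0.996) did not pass in the edgeR test. Npy2r at -0.34 (SE 0.23, 0.455) and Calcr at -0.49 (SE 0.22, 0.227) did not pass either, and for both the fasted plate lay below every fed plate. In simulated counts the test recovered 9% of genes changed 2-fold and 71% of those changed 4-fold. The spread between plates set in those counts is not given here. These shares are therefore not read as the power for any single receptor.

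In other neurons 0 of 8 receptors tested were called by edgeR, where 0.143% of 12615 genes were (18). An unadjusted edgeR p under 0.05 was found for 2 of the 8 and for 1241 of the 12615 genes. Ghr was 151, 155 and 155 CPM fed and 288 fasted, a log2 difference of 0.91 (SE 0.22, edgeR adjusted p = 0.173). Prlr was 124, 154 and 141 fed and 230 fasted (0.71, SE 0.23, 0.330). For both the fasted plate lay above every fed plate, and without fed plate 1 they passed (Ghr 0.000231, Prlr 0.0175). The DESeq2 test gave 0.456 for Ghr and called neither. In Xist-only cells the Prlr difference was 0.23. The 5 fasted cells of N4 gave 160 Ghr counts (563 CPM) and 111 Prlr counts (391 CPM), the latter in 3 cells. N0, N10, N12 and N13 had no fasted cell, and the part of this mix was not tested. At 3000 UMIs Ghr was seen in 16 of 41, 15 of 54 and 24 of 74 fed cells and 7 of 24 fasted ones. Prlr was seen in 5, 10 and 14 of these fed cells and 6 of these fasted ones. The fasted share lay among the fed ones for Ghr and above them for Prlr. The other 6 receptors differed by -0.15 (Npy1r) to 0.62 (Acvr1c). Ghsr and Crhr1 were too low to be tested, with 20 and 13 counts.

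The difference in AgRP-like neurons and that in other neurons was not tested against each other for any receptor. No receptor was called by edgeR in the remaining 4 classes, where the backgrounds were 3.21% in tanycyte-like, 0.601% in astrocyte-like, 0.341% in endothelial-like and 1.06% in VLMC-like cells. Ghr, Insr and Igf1r were tested in each, with Npy2r also in tanycyte-like and Npy1r in VLMC-like cells. Ghr in endothelial-like cells was 183, 133 and 260 CPM fed and 349 fasted (log2 0.86, SE 0.50, edgeR adjusted p = 0.871). Igf1r there differed by 0.49 (SE 0.54, 0.930), with fed plate 1 at 850 against 3383 and 3267. Npy1r in VLMC-like cells differed by 0.86 (SE 0.76, 0.654), from 27 fed counts and 7 fasted counts.

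**Figure D4:**
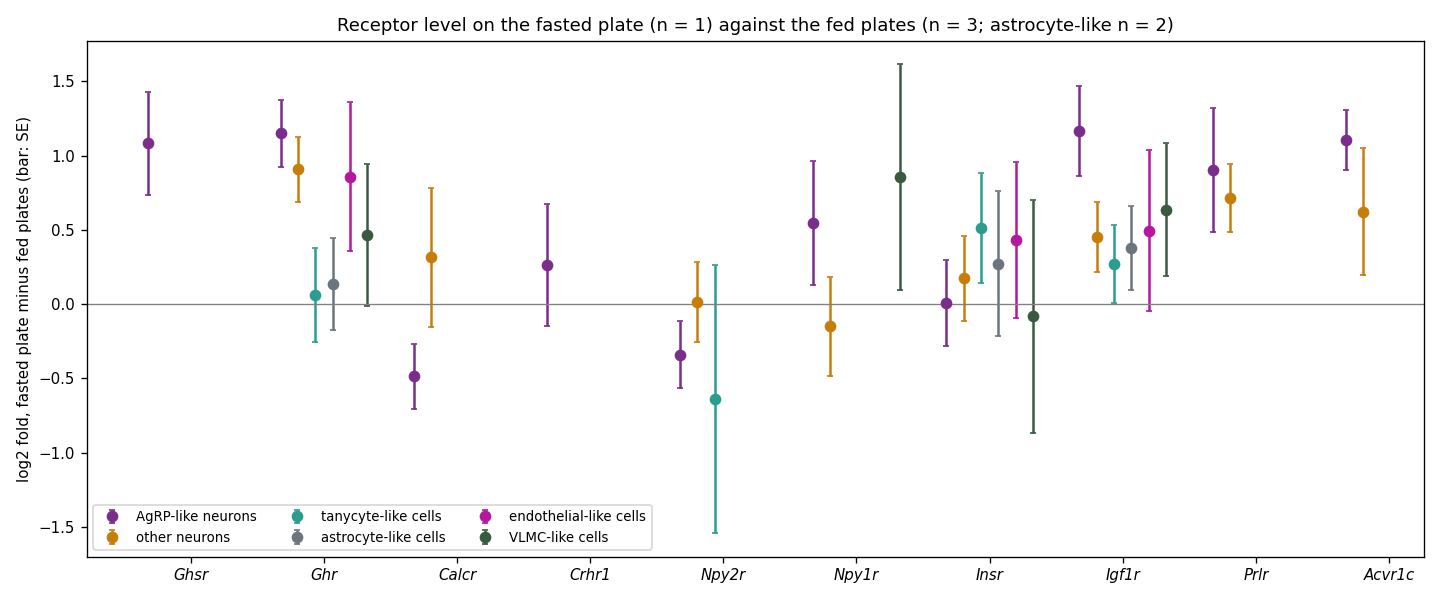
Difference between the fasted plate and the fed plates for each receptor tested, by cell class. The y axis is the log2 fold with its SE; Igf1r in AgRP-like neurons is at 1.16 and Ghsr at 1.08, and Calcr in AgRP-like neurons at -0.49.

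The ligands and partners of these receptors were followed on a list of 105 genes, of which 103 are in the tables. In AgRP-like neurons 66 were tested, with 1 higher and 4 lower by edgeR, and the median difference was -0.06. Over all 13094 genes tested in this class, 4.96% were called. Lepr, the leptin receptor itself, was the higher one, at 27.8 to 45.4 CPM fed and 212 fasted (log2 2.58, SE 0.23). Like Ghr and Acvr1c, Lepr was among the genes that led cluster 22, which held 22 of the 23 fasted cells. Its value is therefore a description. Lower were Igf2 (-2.15, SE 0.39, edgeR adjusted p = 0.000442), a growth factor made by meningeal cells, and Mrap2 (-1.27, SE 0.34, 0.0240), a receptor accessory protein that enhances ghrelin signalling. Acvr1b (-1.07, SE 0.32, 0.0442), the ALK4 relative of Acvr1c, and Adra1a (-0.92, SE 0.25, 0.0245) were lower too. Mrap2 (0.262), Acvr1b (0.400) and Adra1a (0.226) were lost with the DESeq2 test, and all 4 lower calls were lost in Xist-only cells, where the differences were -2.18 for Igf2, -1.21 for Mrap2, -1.06 for Acvr1b and -0.92 for Adra1a. Acvr1b was also lost without fed plate 1 (0.0848) or 2 (0.0566), and Adra1a without fed plate 2 (0.0691). On plain totals Igf2 was 6538 to 12679 CPM in fed VLMC-like cells and 7052 in fasted ones, against 40.5 to 59.4 and 10.5 in AgRP-like neurons and 36.7 to 59.1 and 10.9 in other neurons; the part of free RNA in this difference was not tested.

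Between AgRP-like and other neurons, 70 partners were compared, of which 18 were higher on 4 of 4 plates and 17 lower on 4 of 4, with a median of -0.03. The matching share over all genes was not counted, so these counts are not read as particular to the partners. Socs2 (1.58, SE 0.18) and Cish (1.46, SE 0.26), negative regulators of cytokine receptor signalling, Irs4 (1.69, SE 0.09), an adaptor of insulin and IGF receptors, Mc3r (2.03, SE 0.24) and Foxo1 (1.32, SE 0.14) were among the higher. Inhbb, an activin subunit, was at -3.79 (SE 0.48) and Crhr2 at -3.91 (SE 0.59). Jak2, through which Ghr and Prlr signal, was at -0.75 (SE 0.16). Pik3r1, listed with the insulin and IGF partners, was at -1.09 (SE 0.15). Both were lower on 4 of 4 plates. These are descriptions.

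Tanycyte-like cells had Igfbp7 higher (2.03, SE 0.38, edgeR adjusted p = 3.1e-05) and Igfbp5 lower (-1.58, SE 0.29, 2.6e-05) of 56 tested, where the background was 3.21%. Both calls were lost in Xist-only cells (0.747 and 0.365). The DESeq2 test gave no adjusted p for Igfbp7 and 0.000404 for Igfbp5. The class pools clusters 4, 7 and 10, whose mix differed by plate. Cluster 7 held 26 of 49, 11 of 72 and 23 of 72 fed cells and 3 of 42 fasted ones. Cluster 10 held 5, 7 and 20 fed cells and 15 fasted ones. The part of this mix in the Igfbp7 and Igfbp5 differences was not tested. VLMC-like cells had 4 of 48 lower, where 1.06% of all genes were called in either direction. Igf1, the growth factor, was 232, 383 and 97.1 CPM fed on plain totals and 0 counts in the 13 fasted cells (edgeR adjusted p = 0.000266). The fed mean of 238 CPM (SD 143) was 5.69 times a floor of 3 counts in the fasted sum (41.7 CPM). Igfbp4 (-2.52, SE 0.64, 0.0146), Igfbp5 (-2.67, SE 0.61, 0.00764) and Igfbp7 (-2.07, SE 0.57, 0.0319) were the others. All 4 were lost with the DESeq2 test, which called 0 genes in this class, and without fed plate 2 (adjusted p from 0.102 to 0.226). Igfbp4 (0.0877) and Igfbp7 (0.110) were also lost without fed plate 1. In Xist-only cells Igf1 (0.684), Igfbp4 (0.188) and Igfbp7 (0.703, log2 -1.09) were lost and Igfbp5 was kept (0.0342). Igfbp7 was lost without a filter too (0.0537). The median over all genes in this class was -0.11. Astrocyte-like cells had Gnai2 lower (-1.02, SE 0.26, 0.0259) of 39 tested, where 0.601% of all genes were called. The Gnai2 call was lost with DESeq2, without a filter (0.295), with at least 2000 transcripts per well (0.0525) and in Xist-only cells (0.943, log2 -0.37). By edgeR, 0 of 37 in endothelial-like cells were called, where 0.341% of all genes were.

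Because the plates differ in the sex of their cells, the receptors were compared between Xist-only and Y-only cells within fed plates. In other neurons of fed plates 2 and 3 (70 cells of the first kind, 26 of the second), 0 of 8 receptors tested were called by edgeR. Npy1r was lower in Xist-only cells, at 34.3 against 128 CPM (log2 -1.92, SE 0.42, adjusted p = 0.336), with -1.04 on plate 2 and -2.70 on plate 3. Npy2r was at 62.4 against 134 (-1.10, SE 0.29, 0.610) and Igf1r at 118 against 59.7 (0.99, SE 0.31, 0.779). In AgRP-like neurons, with at least 5 cells of both kinds on 3 fed plates, Ghsr differed by -0.71 (SE 0.58; -1.29, -0.11 and -1.71 by plate). Ghr differed by -0.10 (SE 0.20), Calcr by 0.26 (SE 0.16), Npy2r by -0.35 (SE 0.15) and Acvr1c by -0.32 (SE 0.24), and all of these, Ghsr included, had an edgeR adjusted p of 1.00.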

How the data were processed

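Sorted cells were profiled by CEL-seq2 on 4 plates. The deposited values are expected counts: the number of distinct UMIs for a gene in a well, adjusted for collisions and not normalized. The submitters' processing notes name Trim Galore, STAR and mm10. The UMI counter, annotation and strand setting were not given in the sources used here. Wells with at least 1000 transcripts and under 30% mitochondrial transcripts were kept. Cells were clustered with scanpy 1.11.5 (2000 variable genes, 30 components, 10 neighbours, Leiden resolution 1.5) without the 10 receptors, their partners, Agrp, Npy, Pomc, Cartpt, Xist, Tsix and Y-linked genes. For a name, at least 3 markers of a cluster needed a log2 fold of at least 1 and detection in 25% of cells. Not every cluster that met this was named, and the further conditions are not given here. Clusters 9, 14 and 16 met 7 of 7 endothelial markers and cluster 11 met 6 of 6 pericyte markers, yet they stayed unnamed. Neuron clusters also needed 30 or more neuron marker UMIs per 10000, chosen with the data in view. The other neurons were split further (1500 genes, 25 components, 8 neighbours). No doublet caller was run, as 1 cell was sorted per well. The members and gene lists were chosen with earlier results of these data known; named genes are the 10 members, the 3 genes most like each, the partners called and their ligands. The genes nearest to Ghr and Npy1r are not reported here.

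Counts were rounded, summed per plate and class, and tested with edgeR 4.0.16 (filterByExpr, TMM, robust quasi-likelihood, Benjamini-Hochberg over all genes, threshold 0.05). Plates with under 5 cells of a class were left out, which leaves 2 fed plates for astrocyte-like cells. With 1 fasted plate the spread comes from the fed plates. Contrasts between classes had plate as a block. Intervals are exact (Clopper-Pearson or Poisson) at 95%, and floors are 3 counts, for counting error only. Alternatives were DESeq2 1.42.0, its size factors, no filter, a minimum of 2000 transcripts, Leiden resolution 1.0 and each plate left out; Xist-only cells, a minimum of 5 cells for the sex comparison and thinning to 5000 UMIs were chosen after seeing the data. Scripts were tested on simulated data with 200 changed genes.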

Additional observations from a re-analysis of the deposited data

Results flagged for a closer look

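Npy1r was present in cells that no comparison used. Cluster 9, 39 unnamed cells led by Tagln, Acta2 and Myh11, genes of contractile vessel wall cells, had 92.5 CPM of Npy1r (Poisson interval 68.4 to 122, 49 counts). The list holds Npy1r in part for its high level in pericytes, so this value is a description and no new or independent result. It is listed because these cells enter no comparison and the value lies above the highest fed mean of the compared classes, 64.0 CPM in other neurons, a bar set after seeing the data. In cluster 11, 27 unnamed cells led by Abcc9 and Atp13a5, it was 111 CPM (55.3 to 198), with 11 counts. Groups of 3 plates were too small to look for single plates that stand apart.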

How the results depend on the processing

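Of 274 alternatives to 32 fasted-against-fed receptor values, 254 kept direction and side of the threshold. The causes of the changes were not tested. No paired analysis was possible because the fed and fasted groups share fewer than 2 replicate numbers. Called genes in AgRP-like neurons (650) fell to 175 with the DESeq2 test and 57 in Xist-only cells. In other neurons (18) there were 183 without a filter and 112 to 488 leaving out a plate. In tanycyte-like cells (330) there were 33 with DESeq2, 201 without a filter, 12 in Xist-only cells and 151 to 247 leaving out a plate. In astrocyte-like cells (32) these were 1, 16 and 13, and no plate could be left out with 2 fed plates. In endothelial-like cells (17) there were 1 with DESeq2, 11 without a filter, 10 with at least 2000 transcripts per well, 6 at Leiden resolution 1.0, 61 in Xist-only cells and 3 to 86 leaving out a plate. In VLMC-like cells (56) there were 0, 29, 37 and 6 to 121 with DESeq2, no filter, Xist-only cells and a plate left out.

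Some directions turned, none of a called value. In AgRP-like neurons these were Crhr1 (-0.0412, Xist-only) and Insr (-0.00637 with DESeq2, -0.13 to 0.21 leaving out a plate). In other neurons they were Npy2r (-0.0283 without a filter, -0.0553 to 0.0676 leaving out a plate) and Npy1r (0.77 in Xist-only cells, -0.325 to 0.0563 leaving out a plate). Ghr in tanycyte-like cells turned at Leiden resolution 1.0 (-0.11) and ranged from -0.0462 to 0.23 leaving out a plate, and Igf1r in endothelial-like cells turned from 0.49 to -0.16 in Xist-only cells. Ghr and Acvr1c in AgRP-like neurons kept their direction under every alternative run. Ghr was found in 33.3% of AgRP-like neurons at 500 UMIs and 85.8% at 3000. The 10 receptor differences between AgRP-like and other neurons kept their sign under the alternatives run. In AgRP-like neurons depth limits Prlr (98 counts), Npy1r (102), Crhr1 (110) and Ghsr (165).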
